A study of Mus musculus with 8 samples.

Results

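The DNA replication genes are a list of 43 genes whose products license origins, unwind and copy DNA and supply its nucleotides, out of 18193 genes measured on mouse expression arrays. The list was set by gene name, with earlier results of these data known. A gene was measured by the probe sets that name it alone, 96 for these 43 genes, and the brightest of them, by its mean over all 8 arrays, stood for the gene. All values below are levels on the log2 scale or differences of such levels, so that a difference of 1 is a doubling. The list holds the helicase genes Mcm2, Mcm3, Mcm4, Mcm5, Mcm6, Mcm7, Gins1, Gins2, Gins3, Gins4 and Cdc45 with Mcm10 (12 genes), the origin genes Orc1, Orc2, Orc3, Orc4, Orc5, Orc6, Cdc6, Cdt1 and Gmnn (9 genes), Pcna with Rfc1, Rfc2, Rfc3, Rfc4 and Rfc5 (6 genes), the polymerase genes Pola1, Pola2, Prim1, Prim2, Pold1, Pold2, Pole and Pole2 (8 genes), Rpa1, Rpa2 and Rpa3 (3 genes), Fen1 and Lig1 (2 genes), and Rrm1, Rrm2 and Tyms (3 genes).

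RNA was measured in 4 groups of 2 arrays each, named as biological replicates in the labels: Tfap2c-/- PGCLCs, ctrl PGCLCs, Tfap2c-/- ESCs and ctrl ESCs. Tfap2c encodes the transcription factor AP-2 gamma, which acts in germ cell development. The ESCs were embryonic stem cells that carried the Blimp1mVenus reporter and floxed Tfap2c alleles, and these parental lines served as ctrl. Tfap2c-/- ESCs came from the same lines after transient transfection of a Cre plasmid with the pGK promoter, and a pair of lines was made. PGCLCs, primordial germ cell-like cells, were made from ESCs of each genotype through epiblast-like cells with BMP4, BMP8b, SCF, LIF and EGF and were sorted for Blimp1mVenus, so all 4 groups share the reporter and the floxed background, and the labels name the sorted cells PGC. The labels do not tie the replicate numbers to the lines, and the p-values below measure only the spread between these arrays.

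Replication starts when the origin recognition complex, with Cdc6 and Cdt1, loads the MCM helicase ring on DNA, a step that geminin (Gmnn) blocks by holding Cdt1. In S phase Cdc45 and the GINS complex join the ring to form the active helicase, polymerase alpha with primase lays primers, and polymerases delta and epsilon extend them on the Pcna clamp, which replication factor C loads. RPA covers single strands, Fen1 and Lig1 process and join Okazaki fragments, and ribonucleotide reductase and thymidylate synthase make nucleotides. Many of these genes are transcribed under E2F factors at the G1 to S transition. ESCs cycle fast with a short G1 phase, which makes them a cell type with high S phase activity against which PGCLCs can be set.

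Promoter windows from RefSeq (build GRCm38.p6, 250 bases before to 50 bases after the start site) were matched by symbol for 35 of the 43 genes. They were searched on both strands for the E2F letters TTTCCCGC, TTTCGCGC, TTTGCCGC or TTTGGCGC, for CCAAT, and for the AP-2 letters GCCNNNGGC. An E2F match was present for 14 of the 35 genes (40%), against 2.6% of the 27025 genes with a window. CCAAT was present for 23 of the 35 (65.7%), against 41.1% of all genes, and the AP-2 letters for 7 of the 35 (20.0%), against 18.5% of all genes. The genes with an E2F match were Mcm3, Mcm5, Mcm6, Mcm7, Gins3, Cdc6, Cdt1, Orc1, Orc3, Rfc3, Pola1, Pold1, Pole2 and Lig1. The windows of 4 genes that differed between PGCLCs and ESCs and hold an E2F match are shown, 5′ to 3′ on the strand of the gene, because they set a gene that was higher (Mcm7) beside genes that were lower (Pola1, Pole2 and Cdt1) in PGCLCs. Capitals mark matches to the E2F letters and to CCAAT on either strand.
Mcm7, chr5:138171834-138172133, minus strand: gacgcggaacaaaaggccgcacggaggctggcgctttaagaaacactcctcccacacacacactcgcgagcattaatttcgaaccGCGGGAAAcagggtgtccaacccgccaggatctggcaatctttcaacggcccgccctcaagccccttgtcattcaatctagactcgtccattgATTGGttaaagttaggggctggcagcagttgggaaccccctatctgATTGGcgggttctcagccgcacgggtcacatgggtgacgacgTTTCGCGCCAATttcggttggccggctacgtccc
Pola1, chrX:93632106-93632405, minus strand: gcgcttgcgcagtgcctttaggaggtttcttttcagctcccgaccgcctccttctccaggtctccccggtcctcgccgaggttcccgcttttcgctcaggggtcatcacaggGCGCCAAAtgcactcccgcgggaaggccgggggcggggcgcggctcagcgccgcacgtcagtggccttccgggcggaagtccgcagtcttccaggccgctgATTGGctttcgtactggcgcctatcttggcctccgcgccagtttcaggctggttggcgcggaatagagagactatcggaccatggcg
Pole2, chr12:69228141-69228440, minus strand: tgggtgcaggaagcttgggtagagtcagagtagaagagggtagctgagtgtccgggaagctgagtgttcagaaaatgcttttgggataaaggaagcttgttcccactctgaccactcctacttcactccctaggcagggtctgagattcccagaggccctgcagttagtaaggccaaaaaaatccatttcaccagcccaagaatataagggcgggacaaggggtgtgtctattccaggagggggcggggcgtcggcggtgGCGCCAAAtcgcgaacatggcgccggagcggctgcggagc
Cdt1, chr8:122567765-122568064, plus strand: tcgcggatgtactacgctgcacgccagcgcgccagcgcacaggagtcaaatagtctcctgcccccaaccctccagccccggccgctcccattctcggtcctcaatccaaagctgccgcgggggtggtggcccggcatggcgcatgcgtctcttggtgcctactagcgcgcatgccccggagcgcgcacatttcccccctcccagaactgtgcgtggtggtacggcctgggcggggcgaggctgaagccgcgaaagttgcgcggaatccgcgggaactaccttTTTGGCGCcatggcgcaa
The Mcm7 window holds E2F matches from positions 86 and 267, counted from 1 at the 5′ end, and 3 CCAAT matches, the last of which overlaps the second E2F match. Pola1 has an E2F match from position 113 and a CCAAT match from position 214, Pole2 an E2F match from position 261 and Cdt1 an E2F match from position 283. Of these 4 windows, 1 holds the AP-2 letters, that of Pola1 from position 138. Orc4, which was also lower in PGCLCs, had no E2F match in 3 windows. A match is a description of the letters and does not show that a factor binds there.

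The labels and arrays were checked first. The 9 germ cell markers measured include Tfap2c, Prdm1 (Blimp1), whose reporter was sorted, Dppa3 (Stella) and Kit. Their summed linear level was 1639 to 1887 in Tfap2c-/- PGCLCs and 4402 to 5808 in ctrl PGCLCs. In ESCs the sum was 1157 to 1266 in Tfap2c-/- and 1351 to 2036 in ctrl cells. It is thus not independent of the knockout or the sort. In Tfap2c-/- cells the mean was higher in PGCLCs than in ESCs for 8 of the 9 markers and lower for Kit. Kit was at 6.84 and 6.94 in Tfap2c-/- PGCLCs, against 7.70 to 8.09 in ESCs. Tfap2c itself was at 8.52 and 8.85 in Tfap2c-/- PGCLCs against 9.84 and 10.29 in ctrl PGCLCs, and at 7.28 and 6.47 in Tfap2c-/- ESCs against 7.88 and 9.14 in ctrl ESCs. The 7 fibroblast markers summed to 112.5 to 232.9 in Tfap2c-/- PGCLCs and 77.9 to 173.0 in ctrl PGCLCs. In Tfap2c-/- ESCs they summed to 71.8 to 91.9 and in ctrl ESCs to 70.7 to 71.2. Col3a1, Thy1 and S100a4 were below the array median in all 4 groups. Over both genotypes 2 of the 7 were called higher in PGCLCs and 0 lower, against 7.27% and 6.05% of all genes. They were Col1a1 (1.52, adjusted p = 0.0482) and Acta2 (0.78, adjusted p = 0.0217), both by limma. Col1a1 was at 5.27 and 4.30 in Tfap2c-/- PGCLCs and 5.06 and 3.13 in ctrl PGCLCs, higher on array 1 of each. RNA quality differed by cell type, with the Gapdh 3′ minus 5′ difference higher on all 4 PGCLC arrays than on all 4 ESC arrays (0.31 to 0.39). Ctrl PGCLC array 2 stood apart at 0.95, against 0.48 to 0.52 on the other PGCLC arrays. Its poly-A spike mean was 7.25, beside 6.81 and 6.19 in Tfap2c-/- PGCLCs and 5.05 to 5.48 on the other arrays. Where the Tfap2c probe set lies relative to the floxed sequence is not given in the sources used here. The part of these marker and quality differences in the results below was not tested.

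Across the whole list the 8 arrays were close. The median level of the 43 genes was 8.55 and 8.43 in Tfap2c-/- PGCLCs, 8.62 and 8.49 in ctrl PGCLCs, 8.79 and 8.61 in Tfap2c-/- ESCs and 8.69 and 8.81 in ctrl ESCs. The PGCLC arrays thus overlapped the ESC arrays by a small margin. Of the 43 genes, 42 had a mean level over 5, against 46.8% of all genes, and the exception was Tyms, thymidylate synthase. Tyms was at 4.01 and 4.22 in Tfap2c-/- PGCLCs and 3.65 and 4.03 in ctrl PGCLCs, against 2.85 and 4.17 in Tfap2c-/- ESCs and 3.36 and 2.96 in ctrl ESCs, so its groups overlapped through 1 Tfap2c-/- ESC array. The median distance between the 2 arrays of a group was 0.13 to 0.21 for the 43 genes in the 4 groups. In bulk RNA, fewer cells in S phase and less of these RNAs per cell cannot be told apart, and no cells were counted by phase here.

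**Figure D1:**
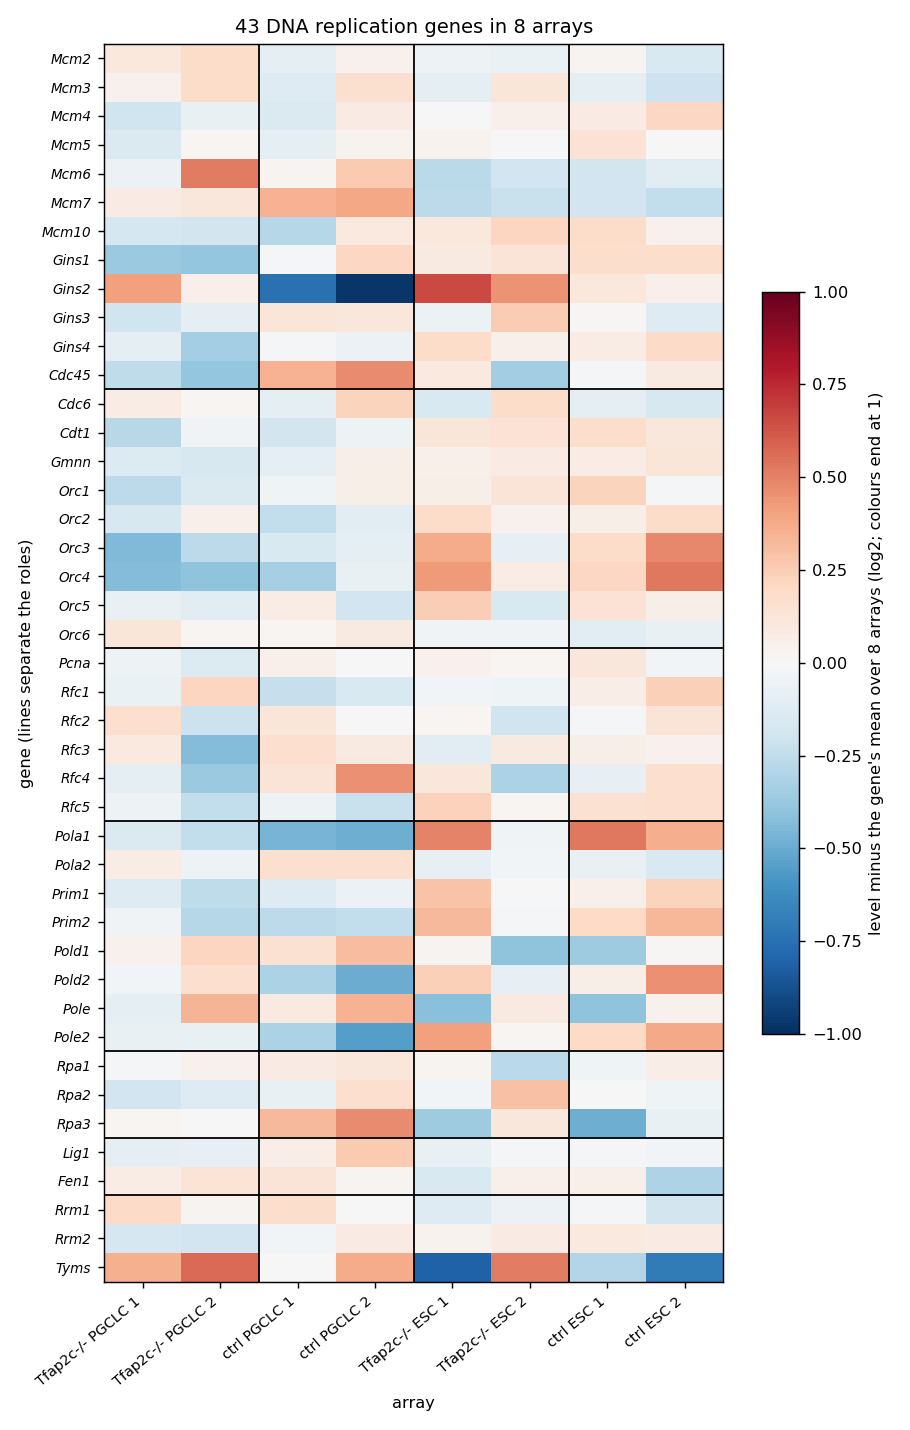
Level of each of the 43 DNA replication genes (rows, grouped by role) on each of the 8 arrays (columns, by group), as the difference from the gene's own mean over the 8 arrays on the log2 scale, red above and blue below. The lowest value is that of Gins2 on ctrl PGCLC array 2 (level 6.77), and Tyms, the 1 gene with a mean level under 5, varies within groups.

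The first question was whether replication genes differed between Tfap2c-/- and ctrl PGCLCs. The test was passed by 1 gene, Gins2, a subunit of the GINS complex of the active helicase. Gins2 was at 8.15 and 7.79 in Tfap2c-/- PGCLCs, against 7.0 and 6.77 in ctrl PGCLCs, and at 8.40 and 8.19 in Tfap2c-/- ESCs, against 7.85 and 7.79 in ctrl ESCs. Both Tfap2c-/- PGCLC arrays lay above both ctrl PGCLC arrays, and the ctrl PGCLC arrays were the lowest of the 8. The mean of Gins2 was 7.97 ± 0.26 in Tfap2c-/- PGCLCs and 6.89 ± 0.16 in ctrl PGCLCs (SD, n = 2 each). The log2 difference was 1.08 (SE 0.17, 95% interval 0.68 to 1.49, adjusted p = 0.0214 by limma) or 2.12-fold. Its second probe set gave 7.71 and 7.37 in Tfap2c-/- PGCLCs, against 6.61 and 6.03 in ctrl PGCLCs, a log2 difference of 1.22 (adjusted p = 0.0418 by limma over all probe sets). The germ cell markers Dppa3 (−4.28) and Kit (−1.91) were lower on the same Tfap2c-/- PGCLC arrays, and the pluripotency gene Klf4 (2.22) and the primed epiblast gene Pou3f1 (1.33) were higher. The 5 primed epiblast markers summed to a linear level of 950.4 to 988.9 in Tfap2c-/- PGCLCs and 378.6 to 436.0 in ctrl PGCLCs. In ESCs they summed to 707.5 to 1019.5 in Tfap2c-/- and 571.7 to 1028.4 in ctrl cells. The brightest was Dnmt3b, at 9.53 and 9.27 in Tfap2c-/- PGCLCs against 8.28 and 7.88 in ctrl PGCLCs. Between the PGCLC genotypes 4 of the 5 differences were positive and 1, that of Fgf5, was negative (−0.21). The 10 pluripotency markers summed to 10109 to 11814 in Tfap2c-/- PGCLCs and 8822 to 9551 in ctrl PGCLCs. The part of cell makeup in the Gins2 difference was not tested. Without any 1 of the 4 PGCLC arrays the Gins2 call was lost, with log2 differences of 0.97 without ctrl PGCLC array 2 (adjusted p = 0.17), 1.2 without ctrl PGCLC array 1 (0.0511), 0.90 without Tfap2c-/- PGCLC array 1 (0.102) and 1.27 without Tfap2c-/- PGCLC array 2 (0.0623), all by limma.

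The other 42 genes were not called, 0 of 43 genes were called lower, and 8 of 43 (18.6%) had an unadjusted p under 0.05, against 15.73% of all genes and 23.83% of those with a mean level over 5. Over all genes limma called 1.29% higher and 1.8% lower in Tfap2c-/- PGCLCs, and among the 8512 genes with a mean level over 5 it called 200 higher and 209 lower. The median difference of the 43 genes was −0.09, against −0.04 over all genes, with 29 negative and 14 positive. The 95% interval lay within 1 on the log2 scale on either side of 0 for 40 of the 43 genes (93.0%), against 74.1% of the 8512 genes with a mean level over 5, and within 0.5 for 22 of them (51.2%), against 23.1%. The replicates did not overlap for 17 genes that were lower and 6 that were higher in Tfap2c-/- PGCLCs, and for 27.9% and 19.5% of all genes in the same directions. Among the 8512 genes with a mean level over 5 they did not overlap for 2731 lower and 2311 higher. No gene of the list had a mean difference over a fold limit of 1.5 on the log2 scale, which 1.95% of all genes passed.

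Within the helicase the other 3 GINS genes had negative differences and no call. Gins1 was at 8.41 and 8.40 in Tfap2c-/- PGCLCs, against 8.77 and 8.99 in ctrl PGCLCs, a difference of −0.47 (SE 0.12, adjusted p = 0.0907 by limma). Gins3 differed by −0.26 and Gins4 by −0.18, each with the arrays of the groups apart. Cdc45, which binds the MCM ring beside GINS, was at 7.12 and 6.98 in Tfap2c-/- PGCLCs, against 7.72 and 7.84 in ctrl PGCLCs. These groups did not overlap, and the difference was −0.73 (SE 0.18, 95% interval −1.15 to −0.31, adjusted p = 0.0848 by limma). Mcm7 was at 11.69 and 11.72 in Tfap2c-/- PGCLCs, against 11.95 and 11.99 in ctrl PGCLCs, a difference of −0.27 (adjusted p = 0.0831 by limma) that was larger than the spread of its replicates but was not called. Mcm2, Mcm3, Mcm4, Mcm5, Mcm6 and Mcm10 differed by −0.10 to 0.16.

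The licensing genes were the group with the narrowest range of differences among the 4 roles with more than 3 genes, from −0.22 (Orc3 and Orc4) to 0.12 (Orc2) with a median of −0.05, and 0 of 9 had an unadjusted p under 0.05. Cdc6, the loader of the MCM ring, was at 8.34 and 8.29 in Tfap2c-/- PGCLCs, against 8.17 and 8.49 in ctrl PGCLCs, with overlapping arrays and a difference of −0.01 (95% interval −0.40 to 0.37). Gmnn was at 9.80 and 9.78 in Tfap2c-/- PGCLCs, against 9.85 and 10 in ctrl PGCLCs, a difference of −0.14 (95% interval −0.36 to 0.08). Orc1, the subunit of the origin complex that is regulated through the cell cycle, was at 7.41 and 7.53 in Tfap2c-/- PGCLCs, against 7.63 and 7.73 in ctrl PGCLCs, a difference of −0.21 (95% interval −0.55 to 0.13).

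Pcna, the clamp and a common marker of S phase, was at 11.93 and 11.84 in Tfap2c-/- PGCLCs, against 12.03 and 11.98 in ctrl PGCLCs. The arrays were apart by 0.05, and the difference was −0.12 (95% interval −0.29 to 0.05). Of the clamp loader genes Rfc4 had the largest difference, −0.53 (SE 0.20, adjusted p = 0.253 by limma), and Rfc1 the largest positive one, 0.27. Among the polymerase genes the differences ran from −0.15 (Pola2) to 0.47 (Pold2, adjusted p = 0.273 by limma), with a median of 0.00. All 3 RPA genes were below 0, with −0.38 for Rpa3. Lig1, the ligase that joins Okazaki fragments, differed by −0.26, Rrm2, the regulated subunit of ribonucleotide reductase, by −0.21, and Rrm1 by 0.02, with no call.

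**Figure D2:**
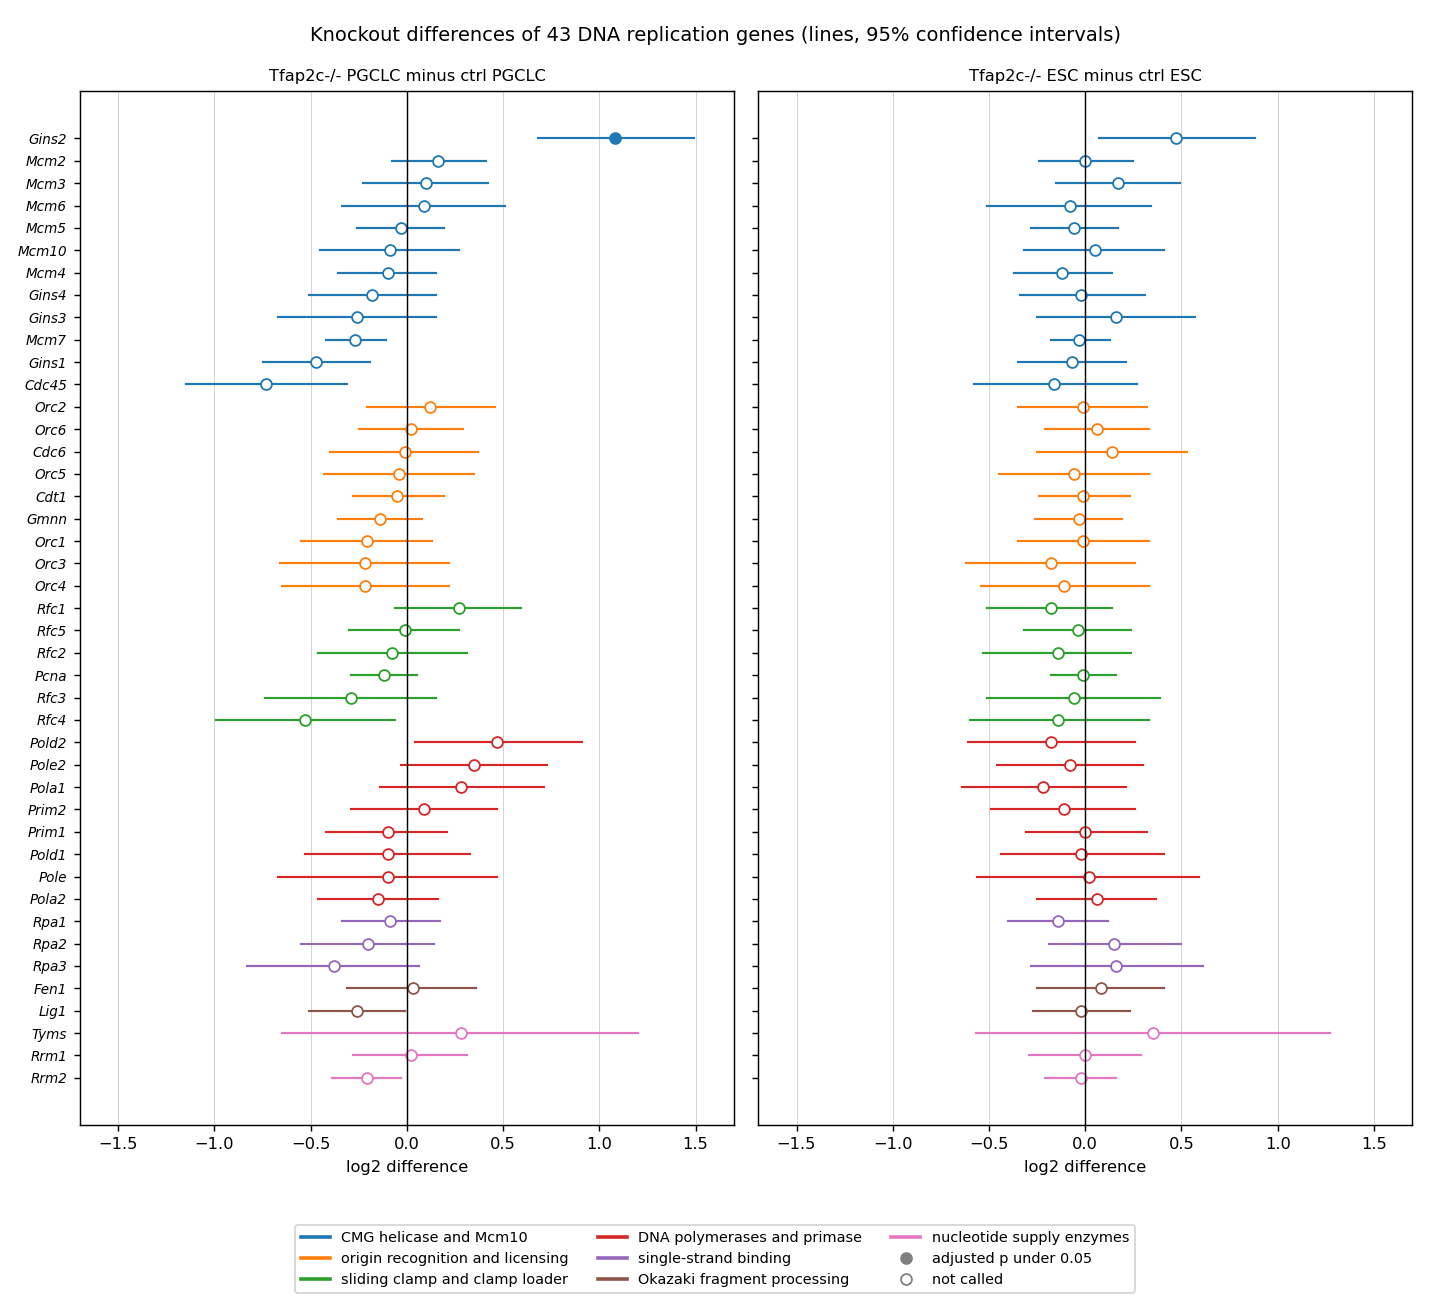
Log2 differences of Tfap2c-/- minus ctrl for the 43 genes, in PGCLCs (left) and in ESCs (right), with 95% confidence intervals from limma. Colours give the role of each gene and filled points an adjusted p under 0.05. Gins2 in PGCLCs (1.08) is the filled point.

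In ESCs limma called 0 of the 43 genes between Tfap2c-/- and ctrl, as over all genes (0%). An unadjusted p under 0.05 was seen for 1 of the 43, against 2.5% of all genes and 1.03% of those with a mean level over 5. That gene was Gins2, with a difference of 0.47 (SE 0.17, adjusted p = 1.00 by limma), both Tfap2c-/- ESC arrays being above both ctrl ESC arrays. The replicates did not overlap for 2 genes higher and 4 genes lower, against 11.8% and 11% of all genes. Among the 8512 genes with a mean level over 5 they did not overlap for 773 higher and 711 lower. The median difference was −0.02, the range ran from −0.22 to 0.47, and the interval lay within 1 for 42 genes and within 0.5 for 27. The difference between the knockout effects in PGCLCs and in ESCs was tested as an interaction. It was called for 0 of the 43 genes (0.148% of all genes). An unadjusted p under 0.05 was seen for 4 of the 43 (9.3%), against 9.01% of all genes and 11.78% of those with a mean level over 5. The 4 were Gins2 (0.61, 95% interval 0.04 to 1.18, adjusted p = 0.517), Pold2 (0.65, adjusted p = 0.516), Gins1 (−0.40, adjusted p = 0.541) and Mcm7 (−0.24, adjusted p = 0.499), all by limma. The knockout effect on Gins2 was thus not shown to differ between the cell types.

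The second question was how PGCLCs stood against ESCs. In ctrl cells 4 of the 43 genes were called, Mcm7 higher and Gins2, Pola1 and Pole2 lower in PGCLCs, against 4.64% of all genes called higher and 3.72% lower. Of the 8512 genes with a mean level over 5, 617 were called higher and 544 lower. The median difference was −0.01 over the list and −0.03 over all genes, with 21 genes positive and 22 negative. The interval lay within 1 for 36 of the 43 genes (83.7%), against 66.9% of the genes with a mean level over 5. A mean difference over 1.5 was seen for 0 of the 43, against 3.49% of all genes.

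Mcm7, a subunit of the helicase ring, was at 11.69 and 11.72 in Tfap2c-/- PGCLCs, against 11.34 and 11.38 in Tfap2c-/- ESCs, a difference of 0.34 (SE 0.07, 95% interval 0.19 to 0.50, adjusted p = 0.0488 by limma). In ctrl PGCLCs it was at 11.95 and 11.99, against 11.41 and 11.36 in ctrl ESCs, a difference of 0.58 (SE 0.07, 95% interval 0.43 to 0.74, adjusted p = 0.00392 by limma) or 1.5-fold. All 4 PGCLC arrays were above all 4 ESC arrays. Mcm7 was the 1 gene of the list called between Tfap2c-/- PGCLCs and Tfap2c-/- ESCs, where 1.35% of all genes were called higher and 0.973% lower, and there the call was lost in 16 of 17 alternatives. Over all probe sets the 1 gene called there was instead Rrm2, lower in PGCLCs on its dimmest probe set (−0.94, adjusted p = 0.0302 by limma), and with the mean of the probe sets it was also Rrm2. In ctrl cells the Mcm7 call was kept in all 17. The 17 leave out the fold limit, which Mcm7 did not reach. They also leave out the fit without probe sets whose suffix marks shared sequence, where Mcm7 could not be measured. The 4 probe sets of Mcm7 all carry a suffix for sequence shared between transcripts or genes, and they gave differences of 0.43 to 0.64 in ctrl cells, all with an adjusted p under 0.05 by limma over all probe sets.

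The other subunits of the ring were not called on their brightest probe sets, which gave the values below. Another probe set of Mcm2 gave 0.39 over both genotypes (adjusted p = 0.0426) and another of Mcm5 gave 0.41 (adjusted p = 0.0486). Both were called higher in PGCLCs by limma over all probe sets. Over both genotypes, PGCLCs minus ESCs, Mcm7 differed by 0.46 (SE 0.05, adjusted p = 0.00153 by limma), Mcm6 by 0.38 (adjusted p = 0.0975 by limma), Mcm3 by 0.13, Mcm2 by 0.12, Mcm5 by −0.09 and Mcm4 by −0.17. Mcm6 was at 10.17 and 10.75 in Tfap2c-/- PGCLCs and 10.26 and 10.49 in ctrl PGCLCs, against 9.96 and 10.04 in Tfap2c-/- ESCs and 10.05 and 10.12 in ctrl ESCs. All PGCLC arrays of Mcm6 were above all ESC arrays, with Tfap2c-/- PGCLC array 2 the highest. Mcm2 was at 10.04 and 10.12 in Tfap2c-/- PGCLCs and 9.84 and 9.98 in ctrl PGCLCs, against 9.88 and 9.87 in Tfap2c-/- ESCs and 9.96 and 9.78 in ctrl ESCs, with overlap between the cell types and an interval of −0.05 to 0.30. Of the GINS genes, Gins2 differed by −0.63 (SE 0.12, adjusted p = 0.0163 by limma) over both genotypes and by −0.94 (SE 0.17, adjusted p = 0.0200 by limma) in ctrl cells, and the call in ctrl cells was lost without any 1 of the 4 ctrl arrays (−0.82 without ctrl PGCLC array 2 to −1.05 without ctrl PGCLC array 1, adjusted p = 0.0569 to 0.13). That comparison and the one between PGCLC genotypes share the ctrl PGCLC arrays. Gins3 was the gene with the difference closest to 0, −0.03, at 5.60 and 5.70 in Tfap2c-/- PGCLCs and 5.92 and 5.91 in ctrl PGCLCs, against 5.74 and 6.05 in Tfap2c-/- ESCs and 5.81 and 5.67 in ctrl ESCs.

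**Figure D3:**
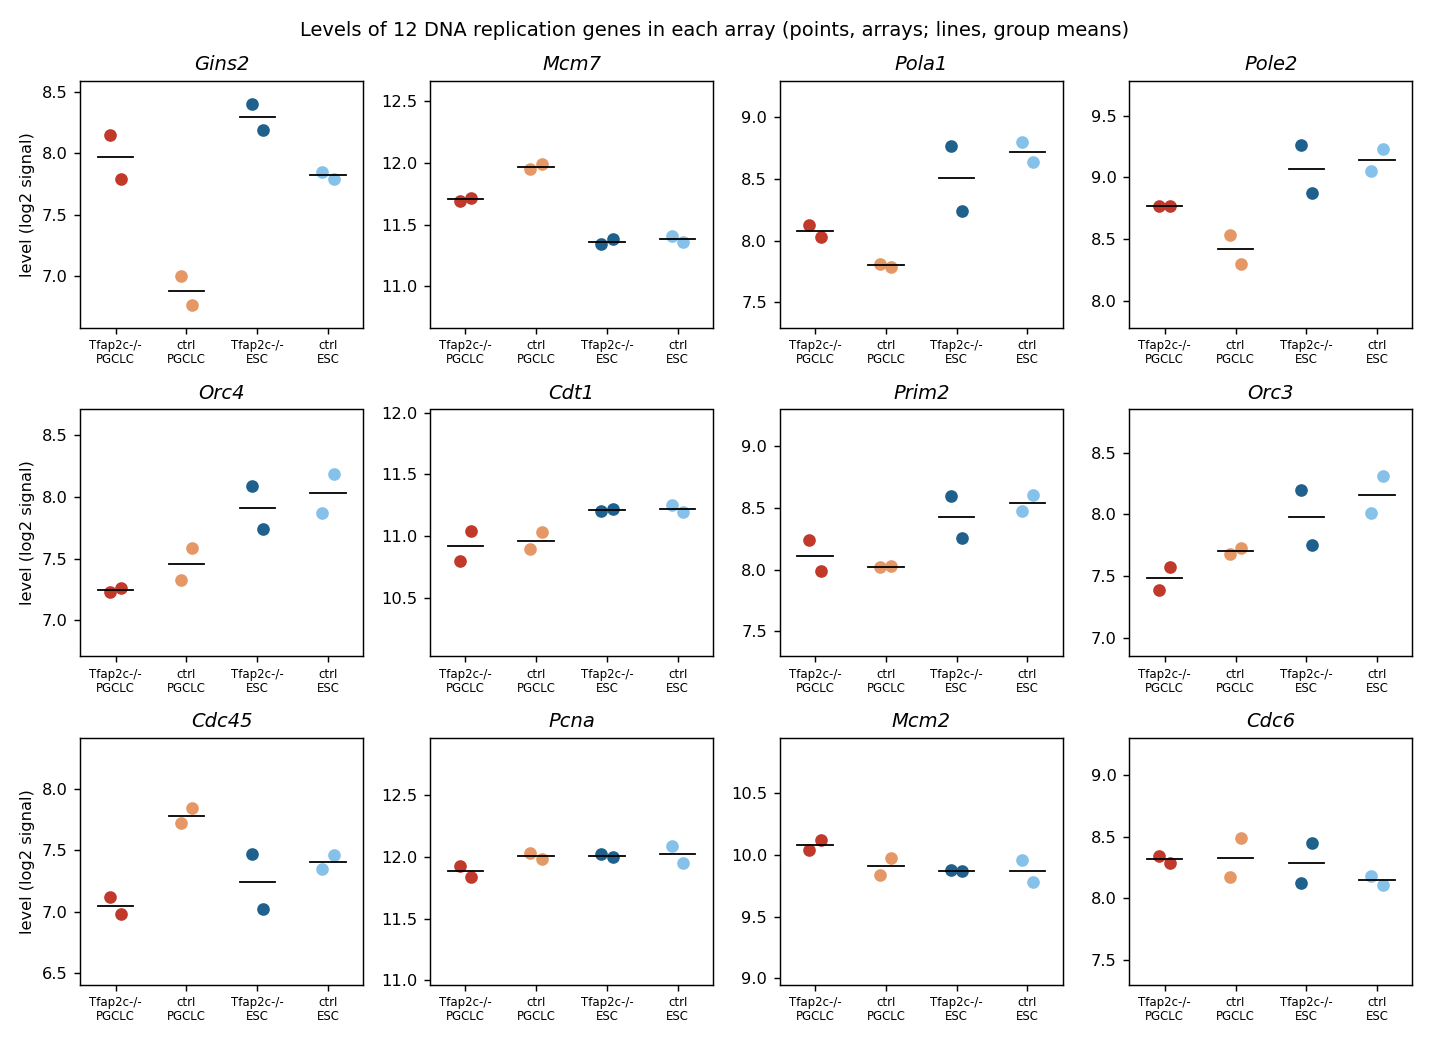
Levels of 12 DNA replication genes on the log2 scale, for the 4 groups from left to right Tfap2c-/- PGCLC, ctrl PGCLC, Tfap2c-/- ESC and ctrl ESC. Points are arrays, lines are group means (n = 2), and each vertical axis spans 2 log2 units around the middle of the gene's values. The ctrl PGCLC points of Gins2 (7.0 and 6.77) lie below all others, all PGCLC points of Mcm7 lie above all ESC points, and those of Pola1 and Pole2 lie below them.

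The polymerase genes were split. In ctrl cells 5 of the 8 were below 0 and 3 above it, with a median of −0.37. Pola1, the catalytic subunit of polymerase alpha, was at 8.13 and 8.03 in Tfap2c-/- PGCLCs, against 8.77 and 8.24 in Tfap2c-/- ESCs, and at 7.81 and 7.79 in ctrl PGCLCs, against 8.80 and 8.64 in ctrl ESCs. All 4 PGCLC arrays were below all 4 ESC arrays, the nearest pair being the Tfap2c-/- arrays. The difference was −0.42 in Tfap2c-/- cells (95% interval −0.85 to 0.00, no call), −0.92 in ctrl cells (SE 0.18, 0.53-fold, adjusted p = 0.0251 by limma) and −0.67 over both (adjusted p = 0.0154 by limma).

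Pole2, an accessory subunit of polymerase epsilon, was at 8.77 and 8.77 in Tfap2c-/- PGCLCs, against 9.26 and 8.87 in Tfap2c-/- ESCs, and at 8.53 and 8.30 in ctrl PGCLCs, against 9.05 and 9.23 in ctrl ESCs. Again the cell types did not overlap, and the difference was −0.30 in Tfap2c-/- cells (no call), −0.73 in ctrl cells (SE 0.16, adjusted p = 0.0365 by limma) and −0.51 over both (adjusted p = 0.0272 by limma). In ctrl cells the Pola1 call was lost without any 1 of the 4 ctrl arrays (−1.0 to −0.84, adjusted p = 0.0861 to 0.138 by limma), and the Pole2 call without any 1 of these or of the Tfap2c-/- PGCLC arrays (−0.84 to −0.61, adjusted p = 0.0639 to 0.195). Mcm7 stayed the 1 gene called in ctrl cells without ctrl PGCLC array 2.

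Prim2, the large subunit of primase, was at 8.24 and 7.99 in Tfap2c-/- PGCLCs and 8.02 and 8.03 in ctrl PGCLCs, against 8.60 and 8.26 in Tfap2c-/- ESCs and 8.48 and 8.61 in ctrl ESCs. The cell types were apart on all arrays, with a difference of −0.42 over both genotypes (SE 0.11, adjusted p = 0.0523 by limma). A second probe set of Prim2 gave −0.54 (adjusted p = 0.022 by limma over all probe sets). Prim1, the catalytic primase subunit, differed by −0.28 and was also apart on all arrays, whereas Pola2 differed by 0.17. Pold1, the catalytic subunit of polymerase delta, was at 9.39 and 9.56 in Tfap2c-/- PGCLCs and 9.50 and 9.65 in ctrl PGCLCs, against 9.37 and 8.94 in Tfap2c-/- ESCs and 8.99 and 9.36 in ctrl ESCs. Its PGCLC arrays were all above its ESC arrays, by 0.02 at the nearest, and the difference was 0.36 (adjusted p = 0.112 by limma). Pold1 gave 0.93 on its second probe set (adjusted p = 0.00414 by limma over all probe sets). Its partner Pold2 differed by −0.01 in Tfap2c-/- cells and by −0.66 in ctrl cells (adjusted p = 0.0734 by limma). Pole, the catalytic subunit of polymerase epsilon, differed by 0.28 in Tfap2c-/- cells and by 0.40 in ctrl cells, with no call.

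Over both genotypes, 4 PGCLC arrays against 4 ESC arrays, 6 of the 43 genes were called. They were 1 higher (Mcm7) and 5 lower (Pola1, Gins2, Orc4, Pole2 and Cdt1), against 7.27% of all genes higher and 6.05% lower. Of the 8512 genes with a mean level over 5, 970 were called higher and 815 lower. Without 1 array this count ran from 2 to 9, and it was 2 without any 1 of the 4 ctrl arrays (ctrl PGCLC array 2 among them) or without Tfap2c-/- PGCLC array 2, 4 without Tfap2c-/- PGCLC array 1, 3 without Tfap2c-/- ESC array 1 and 9 without Tfap2c-/- ESC array 2. The median difference was −0.09, against −0.05 over all genes. The interval lay within 1 for 42 of the 43 genes (97.7%, against 81.6% of the genes with a mean level over 5) and within 0.5 for 28 (65.1%, against 37.8%). The arrays of the cell types did not overlap for 5 genes higher and 9 genes lower in PGCLCs, against 8.44% and 10.1% of all genes. Among the 8512 genes with a mean level over 5 they did not overlap for 1190 higher and 1055 lower.

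Among the licensing genes 7 of 9 were below 0. Orc4, a subunit of the origin recognition complex, was at 7.23 and 7.26 in Tfap2c-/- PGCLCs and 7.33 and 7.59 in ctrl PGCLCs, against 8.09 and 7.74 in Tfap2c-/- ESCs and 7.87 and 8.19 in ctrl ESCs. All PGCLC arrays were below all ESC arrays, and the difference was −0.62 (SE 0.13, adjusted p = 0.0230 by limma), but its other probe sets with a mean level over 5 gave 0.26 and −0.24, and a dimmer one gave 0.02. Orc3, another subunit of that complex, was at 7.39 and 7.57 in Tfap2c-/- PGCLCs and 7.68 and 7.73 in ctrl PGCLCs, against 8.20 and 7.75 in Tfap2c-/- ESCs and 8.01 and 8.31 in ctrl ESCs. Its difference was −0.47 (adjusted p = 0.0571 by limma), again without overlap.

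Cdt1, which brings the MCM ring to origins, was at 10.80 and 11.04 in Tfap2c-/- PGCLCs and 10.89 and 11.03 in ctrl PGCLCs, against 11.20 and 11.22 in Tfap2c-/- ESCs and 11.25 and 11.19 in ctrl ESCs. The cell types did not overlap, and the difference was −0.28 (SE 0.07, 0.83-fold, adjusted p = 0.0428 by limma), but a second probe set of Cdt1 gave 0.00. The Cdt1 call was lost in 11 of 17 alternatives, among them quantile normalization (−0.24), a fit without the trend (−0.28), and leaving out any 1 array other than Tfap2c-/- PGCLC array 2 (adjusted p = 0.073 to 0.134 by limma). Gmnn was at 9.99 and 10.02 in Tfap2c-/- ESCs and 10.01 and 10.06 in ctrl ESCs and differed by −0.16 (95% interval −0.32 to −0.01, adjusted p = 0.156 by limma). Cdc6 was at 8.12 and 8.45 in Tfap2c-/- ESCs and 8.18 and 8.11 in ctrl ESCs, overlapping its PGCLC arrays, with 1 array of each ESC group below them all, and differed by 0.11 (95% interval −0.16 to 0.38). Orc1 was at 7.73 and 7.80 in Tfap2c-/- ESCs and 7.90 and 7.66 in ctrl ESCs and differed by −0.20 (95% interval −0.44 to 0.04).

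Pcna was at 12.02 and 12 in Tfap2c-/- ESCs and 12.09 and 11.95 in ctrl ESCs, close to its PGCLC levels, with a difference of −0.07 over both genotypes (SE 0.05, 95% interval −0.19 to 0.05). The 5 clamp loader genes differed by −0.29 (Rfc5) to 0.06 (Rfc4), and the interval lay within 0.5 for all 6 genes of this role. Rpa3, the small RPA subunit, was at 9.17 and 9.14 in Tfap2c-/- PGCLCs and 9.47 and 9.62 in ctrl PGCLCs, against 8.79 and 9.26 in Tfap2c-/- ESCs and 8.66 and 9.07 in ctrl ESCs, with overlap through Tfap2c-/- ESC array 2. Its difference was 0.40 over both genotypes (adjusted p = 0.0913 by limma), whereas Rpa1 differed by 0.10 and Rpa2 by −0.11. Fen1 differed by 0.19, Lig1 by 0.07, Rrm1 by 0.19 and Rrm2 by −0.15. Tyms differed by 0.64 with an interval of −0.01 to 1.29, the widest of the list. Its 4 probe sets had mean levels of 1.83 to 3.66, around or below the array medians of 3.47 to 3.55. The level of this RNA is therefore uncertain.

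**Figure D4:**
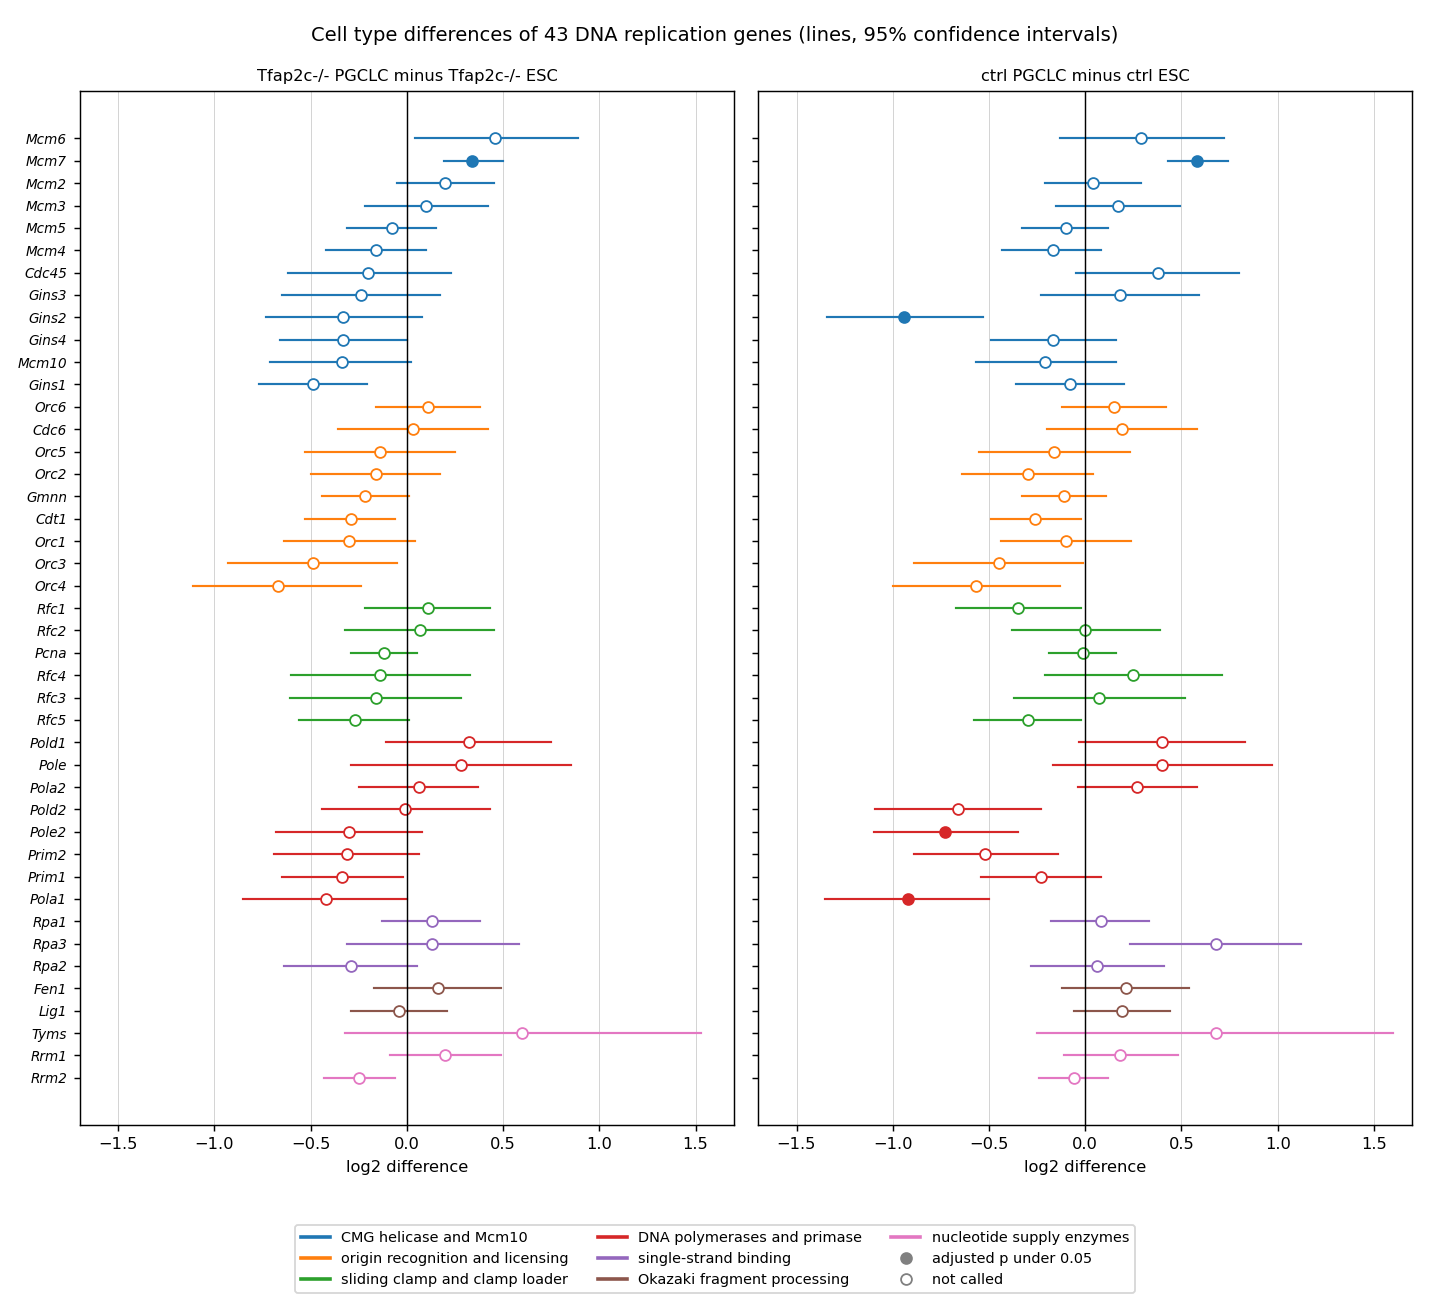
Log2 differences of PGCLC minus ESC for the 43 genes, in Tfap2c-/- cells (left) and in ctrl cells (right), with 95% confidence intervals from limma, colours by role and filled points for an adjusted p under 0.05. Filled are Mcm7 (0.34) in Tfap2c-/- cells and Mcm7 (0.58), Gins2 (−0.94), Pola1 (−0.92) and Pole2 (−0.73) in ctrl cells.

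Probe sets of one gene did not always give the same difference between the cell types. The part of the RNA quality difference between PGCLC and ESC arrays in this was not tested. Of the 23 genes with more than 1 probe set at a mean level over 5, 7 had probe sets that differed by more than 0.5 in PGCLCs minus ESCs (Orc1, Orc2, Orc4, Pold1, Rpa2, Rrm1 and Rrm2), and 7 had probe sets of opposite sign. Rrm2 gave −0.15 on its brightest probe set and −0.25 and −0.93 on the others, and the last had an adjusted p of 0.00254 by limma over all probe sets. Rrm1 gave 0.19 and −0.63, Rpa2 −0.11 and −0.62, and Orc2 −0.23, −0.64 and −0.96. Pold1 gave 0.36 and 0.93, and the second was called higher in PGCLCs (adjusted p = 0.00414 by limma over all probe sets). In ctrl cells this probe set gave 1.04 (adjusted p = 0.0143 by limma over all probe sets). Pold1 was also called there with the mean of the probe sets and without the shared-sequence probe sets. With each probe set as its own feature, 18 of the 96 probe sets were called over both genotypes, from 14 genes, where 11.6% of all 34945 probe sets were called. The median distance between the probe sets of a gene was 0.27, and for Gins2, Mcm7 and Prim2 the probe sets over 5 had the same sign.

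**Figure D5:**
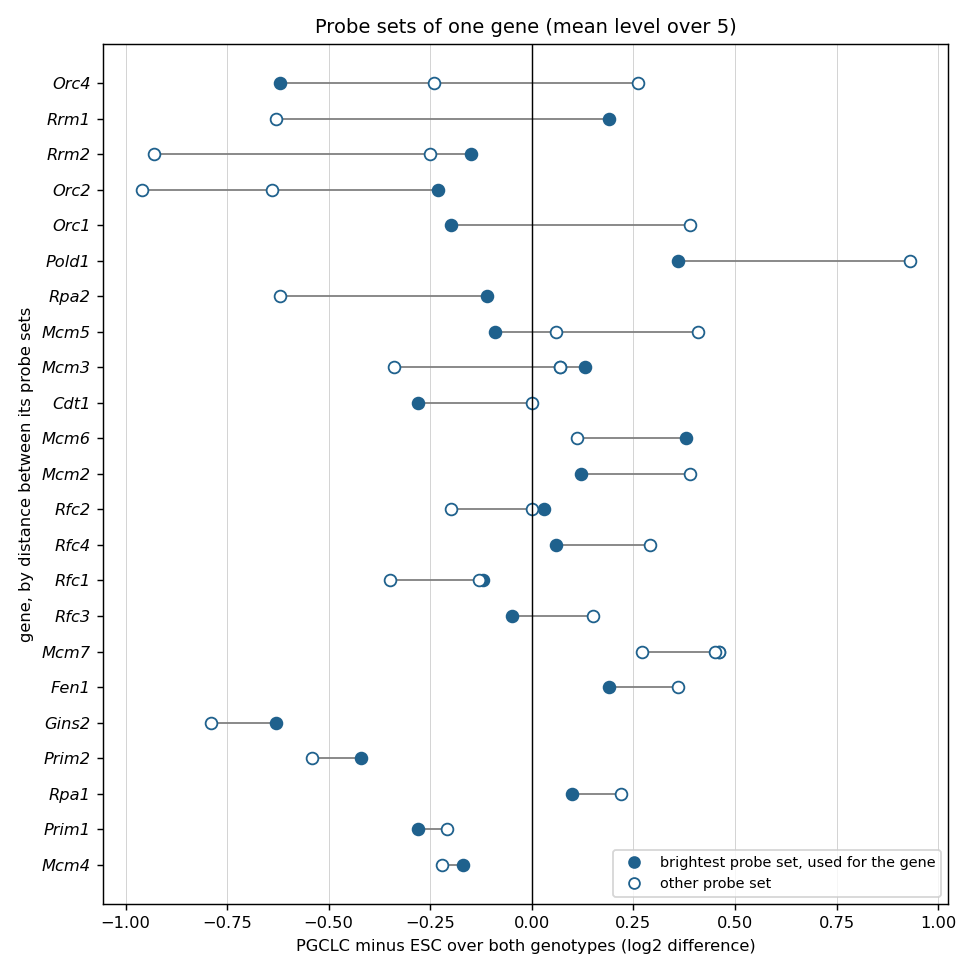
Log2 difference of PGCLC minus ESC over both genotypes for each probe set with a mean level over 5, for the 23 genes with more than 1 such probe set, ordered by the distance between them. Filled points are the brightest probe set, which represents the gene, and open points the others. Orc4 has the widest distance, from −0.62 to 0.26, and the points of Gins2 and of Mcm7 lie on one side of 0.

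Other genes around the fork and the cell cycle were read from lists of named genes. Between the PGCLC genotypes 1.29% of all genes were called higher and 1.8% lower in Tfap2c-/- cells. For ctrl PGCLCs against ctrl ESCs these shares were 4.64% and 3.72%, and over both genotypes 7.27% and 6.05%. Of 29 further fork and origin genes, 0 were called between Tfap2c-/- and ctrl PGCLCs, and 2 were higher in ctrl PGCLCs than in ctrl ESCs, Ticrr (1.17, adjusted p = 0.0184 by limma), which helps to fire origins, and Dna2 (0.73), a nuclease of Okazaki fragments. Of 10 nucleotide supply genes, Samhd1, which breaks down dNTPs, was lower in Tfap2c-/- than in ctrl PGCLCs (−1.09, adjusted p = 0.0350 by limma). In ctrl PGCLCs Dut (0.99) and Dctd (0.76) were higher and Tk1, thymidine kinase, lower (−0.64) than in ctrl ESCs. Of 9 genes of chromatin assembly at the fork, 1 was called in either comparison, Uhrf1, which brings Dnmt1 to replicated DNA. Uhrf1 was at 9.84 and 9.94 in Tfap2c-/- PGCLCs, against 8.69 and 8.29 in ctrl PGCLCs, and at 10.14 and 10.60 in Tfap2c-/- ESCs, against 10.20 and 10.12 in ctrl ESCs. As for Gins2, the ctrl PGCLC arrays were the lowest, with differences of 1.41 between the PGCLC genotypes (adjusted p = 0.0103) and −1.67 between ctrl PGCLCs and ctrl ESCs (adjusted p = 0.00356, both by limma), comparisons that share the ctrl PGCLC arrays.

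Of 25 genes of E2F factors and G1 to S control, 0 were called between Tfap2c-/- and ctrl PGCLCs, although 28.0% differed by more than 0.5, against 22.3% of all genes with a mean level over 5, and 3 by more than 1. The largest difference was that of Ccnd1, a D-type cyclin, 2.33, at 8.37 and 8.66 in Tfap2c-/- PGCLCs, against 7.0 and 5.36 in ctrl PGCLCs, which did not overlap. In ctrl PGCLCs 4 of the 25 genes were called higher and 4 lower than in ctrl ESCs, against 4.64% and 3.72% of all genes. The largest differences there were those of the D-type cyclins Ccnd2 (2.96) and Ccnd1 (−2.72) and the CDK inhibitors Cdkn1c (2.66) and Cdkn1a (−1.43), and 52.0% of this list differed by more than 0.5, against 20.9% of the replication genes and 32.0% of all genes with a mean level over 5. Of 24 genes of G2 and mitosis, 0 were called in ctrl PGCLCs against ctrl ESCs or between the PGCLC genotypes, and over both genotypes Mki67, a marker of cycling cells, was higher in PGCLCs (0.57, adjusted p = 0.0303 by limma). Of 11 checkpoint genes, Hus1 (−0.93) and Rad1 (−0.60), which share a DNA clamp, were lower in ctrl PGCLCs than in ctrl ESCs.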

How the data were processed

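RNA from ESCs and sorted PGCLCs was hybridised to 8 Affymetrix GeneChip mouse genome arrays. The deposited values are log2 levels that the authors normalized across arrays. The study's methods name RMA as the method used, whereas GCRMA is named in the processing notes of the submitters, and no version is given in the sources used here. These methods treat background differently, which moves low levels most. No further normalization was applied. Of 45101 probe sets, 34945 named 1 gene in the platform annotation, and each of 18193 genes was represented by its brightest probe set. Groups were taken from the labels. The 4 group means were fitted together with limma 3.58.1 in R 4.3.3 (eBayes with trend, 4 residual degrees of freedom), two-sided, with Benjamini-Hochberg adjustment over all 18193 genes and calls at an adjusted p under 0.05. The study selected genes by a fold limit, and its methods give no test of differences across genes. The fit was tested on simulated data.

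The 43 genes, the other lists and the tests were chosen with earlier results of these data known. Values on every array were given for the members called in a comparison, for those with the largest differences between the cell types up to 12, for Pcna, Mcm2, Cdc6, Gmnn and Orc1, and for the member closest to 0. Cdc45 and Gins1, and Uhrf1 and Ccnd1 outside the list, were also given so after their values were seen. Of each other list, up to 4 called genes were named. Alternatives were the mean of the probe sets, probe sets without the suffixes for shared sequence, all probe sets, a mean level over 5, equal array medians, quantile normalization, the replicate number as a block, the samples of the comparison only, no trend, array weights, the fold limit, and leaving out each array. Promoter windows came from RefSeq (GRCm38.p6). Plots were drawn with Matplotlib 3.10.9 in Python 3.11.15. The number of arrays limits the precision.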

Additional observations from a re-analysis of the deposited data

How the results depend on the processing

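With 2 arrays per group, calls changed more than medians. The median of the 43 genes moved by less than 0.098, the within-group SD of the array medians, in all 13 alternatives of each comparison. Most medians were smaller in size than this SD, so the rule could not show that their sign was kept. For ctrl PGCLCs against ctrl ESCs the median ran from −0.07 to 0.02. For Tfap2c-/- against ctrl PGCLCs, the count of 1 was 0 with the samples of the comparison only or the fold limit of 1.5, 2 with array weights (Cdc45 and Gins2), and 0 to 2 without 1 array. For ctrl PGCLCs against ctrl ESCs, the count of 4 was 8 over all probe sets, 0 with the fold limit and 1 to 5 without 1 array. For Tfap2c-/- PGCLCs against Tfap2c-/- ESCs, the count of 1 was 0 without the probe sets whose suffix marks shared sequence, with equal array medians, with quantile normalization, with the samples of the comparison only, without the trend, with array weights, with the fold limit and without any 1 array. Over both genotypes, the count of 6 was 14 over all probe sets, 10 among genes with a mean level over 5, 0 with the fold limit and 2 to 9 without 1 array, and Orc4 turned to 0.26 without the shared-sequence probe sets. The member counts of 0 in ESCs and for the interaction stayed 0 in every alternative run. Over all genes, the calls between the PGCLC genotypes numbered 562, against 187 with the samples of the comparison only and 87 to 609 without 1 array. For Tfap2c-/- PGCLCs against Tfap2c-/- ESCs they numbered 422, against 56 with those samples only, 266 with array weights and 80 to 278 without 1 array, and in ctrl cells 1522, against 325 to 1721 without 1 array. Over both genotypes they numbered 2423, against 1310 to 2448 without 1 array and 4044 probe sets when all were tested, and for the interaction 27, against 13 among genes with a mean level over 5 and 1 to 56 without 1 array. Means of all probe sets, dim ones included, gave −0.18 for Pole2 and −0.47 for Pola1 in ctrl cells, with no call. Where 1 array was left out, the lone array was taken to vary like the other groups. The array weights were equal for the 2 arrays of each group (1.13 for both ctrl PGCLC arrays). They could thus not set ctrl PGCLC array 2, which stood apart in RNA quality, against its partner. The count of 2 in PGCLCs came without either Tfap2c-/- ESC array, and the count of 0 without any 1 of the PGCLC arrays.

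Under a block for the replicate number, the counts were 1 between the PGCLC genotypes and 0 for Tfap2c-/- PGCLCs against Tfap2c-/- ESCs, and it changed no other count by over 1.5 times. Same-numbered arrays did not deviate together in all pairs of groups, so the numbers were not taken as pairs. Across genes r ran from −0.33 between the ESC groups to 0.39 between the PGCLC groups. The PGCLC arrays thus deviated in part by number, which 1 block for all 4 groups cannot fit apart from the ESC arrays.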
